A study of Sus scrofa with 16 samples.

Results

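The insulin-like growth factor (IGF) system of the pig pituitary was described through 10 genes: the ligands IGF1 and IGF2, the receptors IGF1R and IGF2R, and the binding proteins IGFBP2, IGFBP3, IGFBP4, IGFBP5, IGFBP6 and IGFBP7. These were 10 of the 25880 genes in the count table and were found by gene symbol, except IGF2, whose row carried no symbol and was named by its position on the pig assembly Sscrofa11.1. Their expression was compared between 2 groups of Puławska gilts that differed in the feed eaten per unit of weight gained, 8 of low (LFC, numbered 1 to 8) and 8 of high feed conversion (HFC, numbered 9 to 16). No pig was treated, and no allele, agent or age differed by label between the groups. The labels give an age of 3 months, the study's methods a higher one. The methods state that the pigs were unrelated, came from different farms, were kept under the same housing and feeding, and that the whole gland was homogenised, so anterior, intermediate and posterior lobes were measured together. The extraction text of the labels speaks of another tissue and reagent than the methods do.

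IGF1 and IGF2 are small secreted proteins that drive growth mostly through the IGF1 receptor, a tyrosine kinase related to the insulin receptor. IGF2R, also known as the cation-independent mannose 6-phosphate receptor, takes IGF2 up for breakdown in lysosomes. The binding proteins hold the ligands in blood and tissue, and proteases release them. In the pituitary, growth hormone from somatotrophs raises IGF1 in the liver, and IGF1 returns to restrain growth hormone. IGF2 is imprinted in mammals, and in pigs it is known as a regulator of muscle growth.

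A few libraries stood apart. HFC replicate 14 carried skeletal muscle transcripts, and their summed level over 4 genes (ACTA1, MYH7, CKM and TNNT3) was 29458 CPM (counts per 1000000 library counts) against 13.6 to 59.3 in the other 15 libraries. LFC replicate 5, and less so HFC replicates 13 and 14, had low levels of genes that span long stretches of the genome. Over 2423 tested genes of at least 100 kb, the median deviation from the gene mean was -0.76 on the log2 CPM scale in LFC replicate 5, -0.47 in HFC replicate 13 and -0.26 in HFC replicate 14, against -0.11 to 0.30 in the other 13. Genes of short span were high in these 3 libraries. Over 2603 tested genes of at most 10 kb, the medians were 0.77, 0.42 and 0.22, against -0.28 to 0.11 in the other 13. HFC replicate 16 had the highest summed level of 4 melanotroph genes, 246424 CPM against 6056 to 77439 in the rest. Each library held the defining hormone of somatotrophs, GH1, at 9641 CPM or more. Total counts ran from 10.973 M, in HFC replicate 14, to 23.060 M.

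The 10 genes did not separate the groups. Each had enough counts to be tested, 5 were fitted higher in HFC and 5 lower, and the median log2 fold change of HFC against LFC was 0.01, beside -0.01 over the 14319 genes tested. With edgeR's quasi-likelihood test, 0 of 10 were called, where a call needed an adjusted p-value (Benjamini-Hochberg) no higher than 0.05 and at least a 1.3-fold change. The background was 0% of all genes tested. At an unadjusted p-value under 0.05, 1 of the 10 was higher in HFC, namely IGF2, against 4.29% of all genes, and 0 of 10 were lower, against 1.53%. The groups overlapped in all 10 genes, as they did in nearly all others, since 0.021% of the tested genes had groups that did not overlap. DESeq2 called 20 genes, or 0.106% of those it tested, and 0 of the 10.

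**Figure D1:**
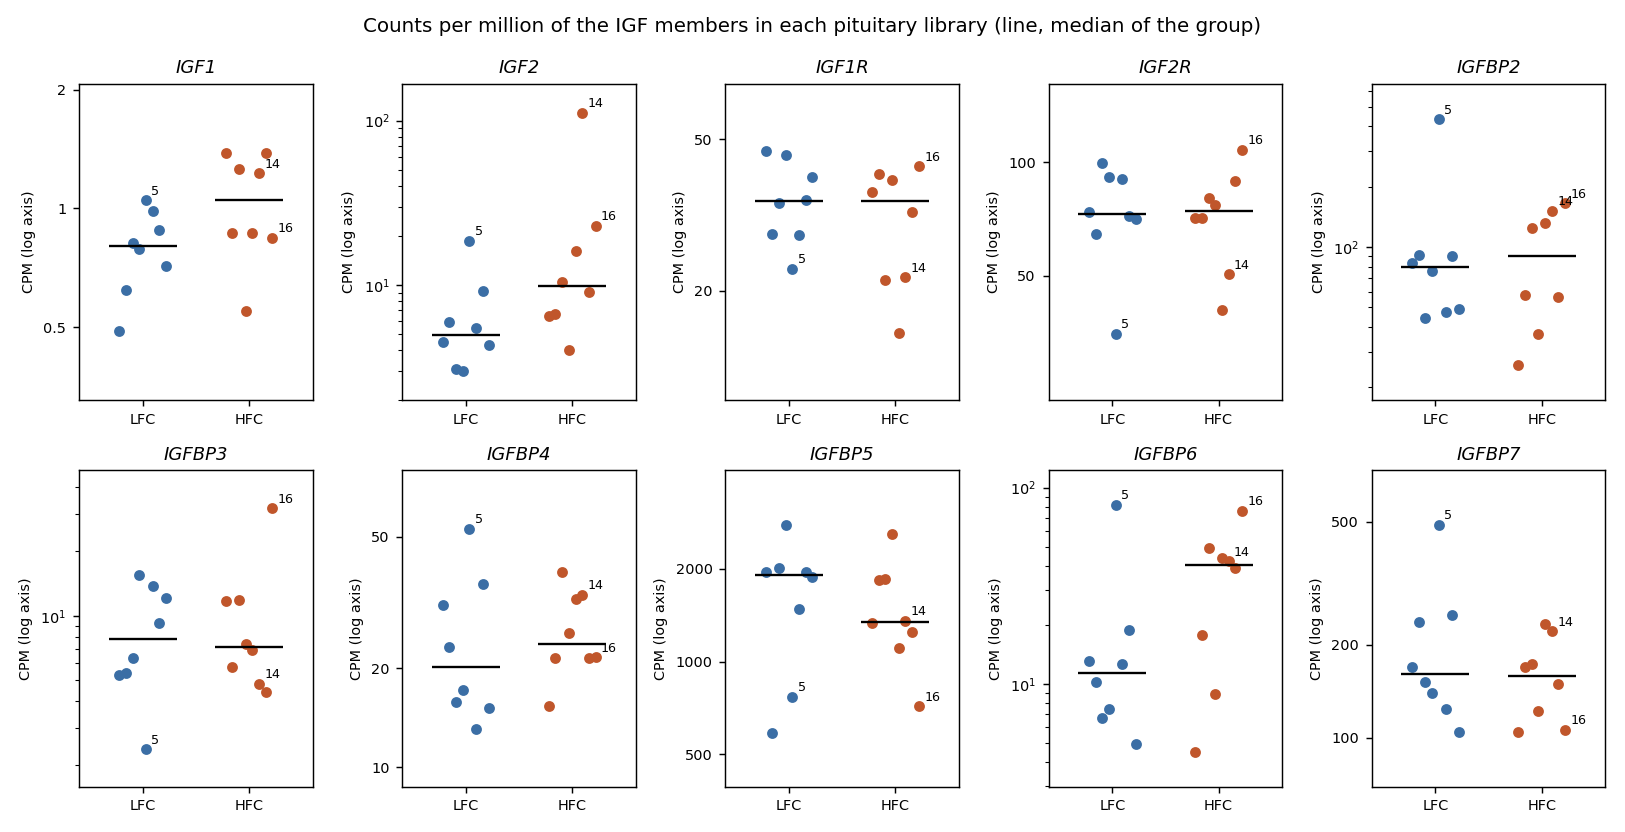
CPM of the 10 genes in each library, on log axes, with LFC in blue, HFC in orange and a line at the group median. Replicates 5, 14 and 16 are numbered. The groups overlap in each panel, and IGF2 in replicate 14, at 112 CPM, lies above the other 15 libraries.

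**Figure D2:**
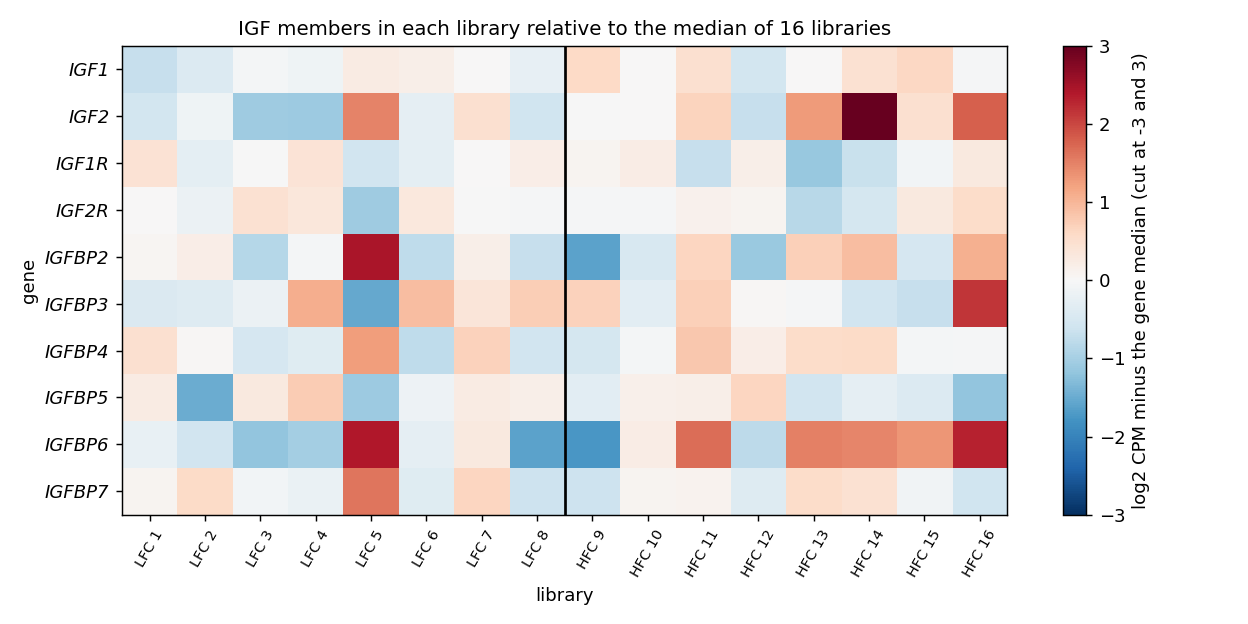
Log2 CPM of each gene minus its median over the 16 libraries, with genes as rows and libraries as columns. The columns of LFC 5, HFC 13, HFC 14 and HFC 16 stand out, with IGF2 and IGFBP6 high in each of these 4 libraries.

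IGF2 was the member with the largest fitted log2 fold change, and most of that value rested on 1 library. The difference in mean log2 CPM rested on it less. The gene (ENSSSCG00000035293) is annotated on chromosome 2 from 1469104 to 1496346 of Sscrofa11.1, next to INS, TH and ASCL2. Its level in LFC ran from 2.99 CPM over a median of 4.98 to 18.6. In HFC it ran from 4.05 over a median of 9.81 to 112. The highest HFC value belonged to replicate 14, followed by replicate 16 with 22.9 and replicate 13 with 16.0, and the highest LFC value to replicate 5. So the groups overlapped, although 7 of 8 HFC libraries exceeded the LFC mean on the log2 CPM scale.

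The group means of IGF2 were 6.76 ± 5.16 CPM in LFC (SD, n = 8) and 23.5 ± 36.3 CPM in HFC (SD, n = 8). The log2 fold change was 1.80 ± 0.65 (SE) with an edgeR adjusted p-value of 0.656, and the gene ranked at place 272 of all tested by unadjusted p-value. Mean log2 CPM differed by 1.16, and an exact permutation test over 12870 assignments gave a two-sided p of 0.0634. HFC replicate 14 alone made up 59.6% of the summed HFC level. Its 1093 reads gave 99.6 CPM before TMM scaling, with a 95% Wilson interval of 93.9 to 106, so counting error was small beside the distance to the next library.

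Without HFC replicate 14, IGF2 averaged 10.8 ± 6.57 CPM in the remaining HFC libraries (SD, n = 7). The log2 fold change then fell to 0.69 ± 0.43 (SE; adjusted p-value 0.999). Mean log2 CPM still differed by 0.72 (exact permutation test, two-sided p = 0.126). In that fit, 0 of the 10 members had an unadjusted p-value under 0.05, while 3.05% of all genes were higher in HFC at that level and 1.27% lower. Without HFC replicates 14 and 16 the log2 fold change was 0.39. Leaving out LFC replicate 5 had the opposite effect, with a log2 fold change of 2.19 ± 0.65 (SE; adjusted p-value 0.338). Mean log2 CPM then differed by 1.41 (exact permutation test, two-sided p = 0.0177). IGF2 and IGFBP6 were then the 2 members higher in HFC at an unadjusted p-value under 0.05, against 8.34% of all genes, and 0 members were lower, against 3.58%. Without both HFC replicate 14 and LFC replicate 5, the log2 fold change of IGF2 was 1.09 (adjusted p-value 0.568).

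The muscle transcripts of HFC replicate 14 stand beside its IGF2 value. ACTA1, the actin of skeletal muscle fibres, reached 17514 CPM there against 1.84 to 9.26 in the other 15 libraries. CKM, muscle creatine kinase, reached 3983 against 0.0602 to 2.95, and TNNT3, the fast muscle troponin T, 7608 against 0 to 1.91. MYH7, a slow myosin heavy chain, was at 353 against 10.2 to 55.9. The 4 genes together took 2.95% of the CPM of this library. In the other libraries their sum was 15.2 to 30.5 CPM in LFC and 13.6 to 59.3 in HFC, and TNNT3 was at 0 in LFC replicate 8, HFC replicate 9 and HFC replicate 11. HFC replicate 14 also had the highest sum of 7 fibroblast genes, 1072 CPM against at most 1041 elsewhere. COL1A2, COL3A1, LUM and PDGFRA of that list were higher in another library. Its sum of 6 oligodendrocyte and Schwann cell genes was the highest too, 468 CPM against at most 377. The part of RNA from muscle or from these other cells in the IGF2 level of HFC replicate 14 was not tested.

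The 5 libraries with the most IGF2, namely HFC replicates 14, 16, 13 and 11 and LFC replicate 5, also had the 5 highest sums of markers of 3 kinds of cell. The summed level of 6 genes of pituicytes and glia (GFAP, AQP4, SLC1A3, COL25A1, RAX and VIM) was 226 to 661 CPM in LFC and 111 to 2072 in HFC. In these 5 libraries it was 661 CPM or more, but VIM, a gene of many mesenchymal cells as well as glia, made up most of it, with 1868, 1049, 1054, 619 and 592 CPM in HFC replicates 16, 14, 11 and 13 and LFC replicate 5. The other genes of the list did not all follow. AQP4 was lowest of all in LFC replicate 5, at 7.61 CPM, and GFAP was at 6.38 CPM in HFC replicate 11 but at 52.0 in LFC replicate 1 and 51.0 in HFC replicate 10, where IGF2 was at 4.48 and 6.62. RAX, a homeobox gene of the neurohypophysis, was at 0 in LFC replicates 2, 3, 4, 6 and 8 and in HFC replicates 12 and 15, and reached 33.9 CPM in HFC replicate 16. The sum of 4 melanotroph genes was 61368 to 246424 CPM in the same 5 libraries and at most 34137 in the other 11. POMC made up most of it, with 60910 to 243007 CPM in the 5, and is also the precursor of adrenocorticotropic hormone of the anterior lobe. PCSK2 and PAX7, also of the melanotroph list, were highest in HFC replicates 16, 11 and 14. DRD2, the remaining gene, was highest in HFC replicate 16, at 490 CPM. It was lowest of all in HFC replicate 13, at 38.9 CPM, and at 59.5 in HFC replicate 14. In LFC replicate 5, PCSK2 was lowest of all, at 2.47 CPM, and PAX7 was at 0. PAX7 was at 0.676 CPM in HFC replicate 13. HFC replicate 15, outside the 5, had 126 CPM of PCSK2 and 9.81 of PAX7. The sum of 8 microglia and macrophage genes was 379 to 684 CPM in the 5 and at most 288 elsewhere. C1QA, C1QB and C1QC made up most of it, and the other genes of that list did not all follow. CSF1R was at 26.6 CPM in HFC replicate 13 but at 36.6 in HFC replicate 10. CX3CR1 was at 2.47 CPM in LFC replicate 5 but at 7.95 in HFC replicate 9. In whole-gland RNA, more cells of a type and more RNA per cell cannot be told apart, and the part of these cells in the group difference was not tested.

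**Figure D3:**
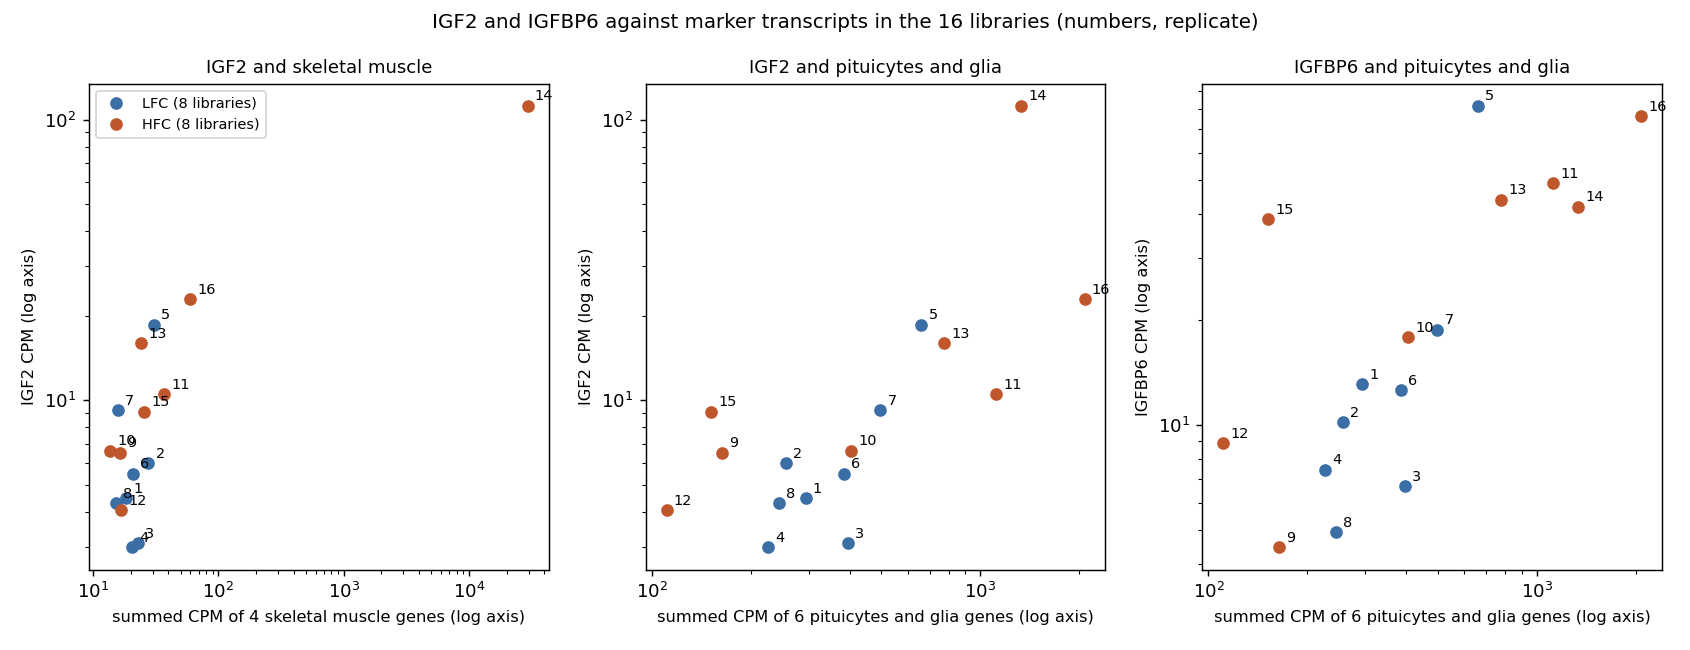
IGF2 and IGFBP6 (vertical axes, CPM) against the summed CPM of 4 skeletal muscle genes or of 6 genes of pituicytes and glia (horizontal axes), all on log axes, with 1 point per library and its replicate number. Replicate 14 lies alone at 29458 CPM of muscle transcripts, and replicate 15 has an IGFBP6 level of 38.8 CPM at a glial sum of 152.

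IGF1 had the fewest reads of the members. The gene (ENSSSCG00000000857; chromosome 5, 81776422 to 81848048) gave 8 to 26 reads per library, so each value carries a large counting error. Its level ran from 0.491 CPM over a median of 0.803 to 1.05 in LFC, and from 0.550 over 1.05 to 1.38 in HFC. The 4 HFC libraries with the highest values, replicates 9, 11, 14 and 15, lay above each LFC library, and HFC replicate 12 was the second lowest of all. The log2 fold change was 0.40 ± 0.23 (SE, adjusted p-value 0.943) and changed little without HFC replicate 14, to 0.37. Over the 16 libraries the difference in mean log2 CPM was 0.33 (exact permutation test, two-sided p = 0.0895).

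Neither receptor passed the test, and their group medians lay close together. IGF1R (ENSSSCG00000030560; chromosome 1, 137387825 to 137692307) ran from 22.9 CPM over a median of 34.4 to 46.7 in LFC and from 15.5 over 34.3 to 42.5 in HFC. This gave a log2 fold change of -0.17 ± 0.21 (SE, adjusted p-value 1). The 4 lowest libraries were HFC replicates 13, 11 and 14, at 15.5, 21.3 and 21.7 CPM, and LFC replicate 5, at 22.9.

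IGF2R (ENSSSCG00000004044; chromosome 1, 7368103 to 7472548) ran from 35.0 CPM over 73.1 to 99.5 in LFC and from 40.6 over 74.1 to 108 in HFC. For this gene the fitted log2 change was -0.02 ± 0.21 (SE, adjusted p-value 1), and 2 SE on either side reached from -0.44 to 0.39. The 3 lowest libraries were LFC replicate 5, HFC replicate 13 and HFC replicate 14. These are the same libraries in which genes of long span were low, and the RefSeq annotation gives spans of 307 kb for IGF1R and 103 kb for IGF2R. Whether this decided the receptor values was not tested. Leaving out LFC replicate 5 moved the log2 fold change to -0.24 for IGF1R and to -0.13 for IGF2R.

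Counts of the binding proteins were mostly counts of IGFBP5. This protein, which is found in extracellular matrix and binds both ligands, is encoded by ENSSSCG00000025924 on chromosome 15 from 118857471 to 118878593, beside IGFBP2. It ran from 589 CPM over a median of 1911 to 2777 in LFC, and from 717 over 1347 to 2593 in HFC. Low values were found in both groups, in LFC replicate 2, HFC replicate 16 and LFC replicate 5, at 589, 717 and 769 CPM. The log2 fold change was -0.15 ± 0.30 (SE, adjusted p-value 1), and it stayed between -0.32 and -0.01 when 1 library at a time was left out.

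Of the reads counted for IGFBP2 to IGFBP7, IGFBP5 held a median of 87.1% in LFC and 82.3% in HFC. These shares depend on transcript length and are compared here between libraries, not between genes. The lowest IGFBP5 shares were 42.0% in LFC replicate 5, 61.6% in LFC replicate 2 and 64.1% in HFC replicate 16, and the other 13 libraries lay between 71.1% and 92.8%. In LFC replicate 5 the remainder was mainly IGFBP7, at 26.7%, and IGFBP2, at 23.8%. In LFC replicate 2 it was mainly IGFBP7, at 24.8%, and in HFC replicate 16 mainly IGFBP2, at 14.8%, with the largest shares of IGFBP6, 6.81%, and IGFBP3, 2.85%, of any library.

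**Figure D4:**
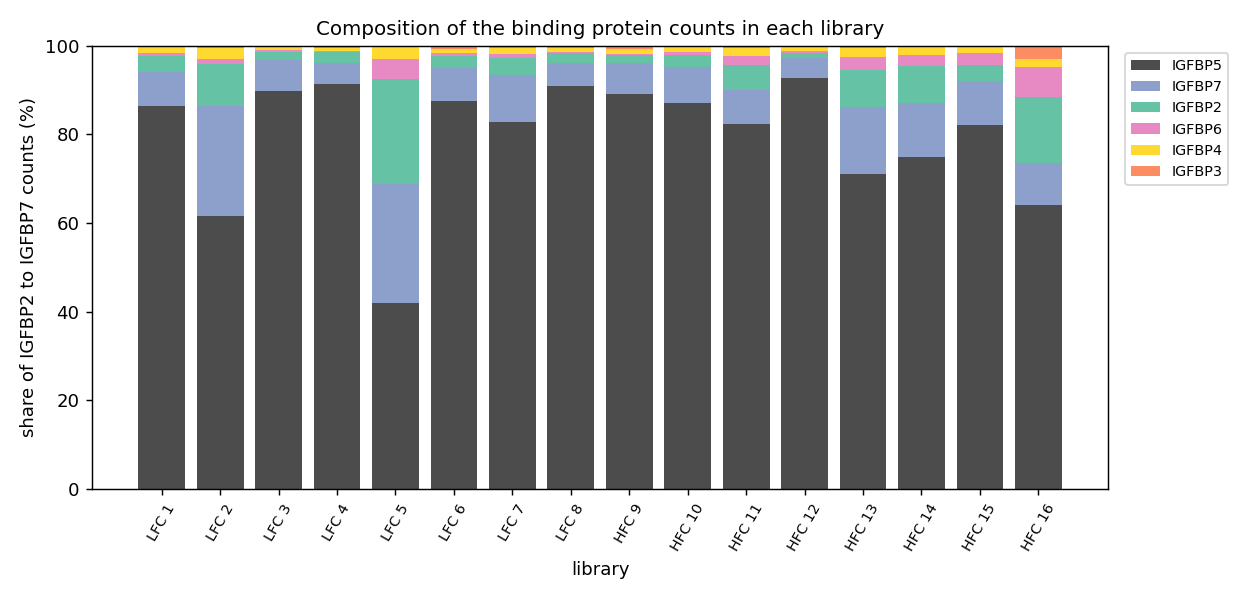
Share of each binding protein in the reads counted for IGFBP2 to IGFBP7 (vertical axis, percent), with 1 bar per library. IGFBP5 holds 71.1% to 92.8% in 13 libraries and 42.0%, 61.6% and 64.1% in LFC 5, LFC 2 and HFC 16.

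IGFBP6, which prefers IGF2 over IGF1, was the binding protein with the largest group difference, and 1 LFC library weakened it. The gene (ENSSSCG00000000261) lies on chromosome 5 from 18353171 to 18357225. It ran from 4.95 CPM over a median of 11.4 to 81.7 in LFC and from 4.47 over 40.5 to 76.2 in HFC. In HFC, 5 libraries (replicates 11, 13, 14, 15 and 16) had 38.8 CPM or more, and the other 3 had 4.47, 8.87 and 17.8. In LFC, replicate 5 had 81.7 CPM, the highest of the 16, and the other 7 had 18.7 or less. The RefSeq span of IGFBP6 is 4.34 kb, and genes of short span were high in LFC replicate 5 and HFC replicates 13 and 14. IGFBP3, with a RefSeq span of 6.5 kb, was lowest in LFC replicate 5. The row counted for IGFBP3 is annotated over a longer stretch that covers the RefSeq position of IGFBP1, so its counts are uncertain. Whether span decided the IGFBP6 values was not tested.

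The log2 fold change of IGFBP6 was 0.87 ± 0.61 (SE, adjusted p-value 1), and the difference in mean log2 CPM was 1.02, which an exact permutation test did not separate from the spread between pigs (two-sided p = 0.142). Without LFC replicate 5, the LFC mean fell from 19.4 ± 25.5 (SD, n = 8) to 10.5 ± 4.72 CPM (SD, n = 7), and the log2 fold change was 1.73 ± 0.48 (SE, adjusted p-value 0.338). The exact permutation test then gave a two-sided p of 0.0329. Without HFC replicate 14 the log2 fold change was 0.83, and without HFC replicate 16 it was 0.60. When LFC replicate 5 and HFC replicates 13, 14 and 16 were all left out, a choice made after seeing the data, it was 1.17 with an adjusted p-value of 0.977. Of the 6 libraries with IGFBP6 at 38.8 CPM or more, 5 were those with the highest sums of glial, melanotroph and microglia genes named with IGF2. The glial sum was mostly VIM, the melanotroph sum mostly POMC and the microglia sum mostly C1QA, C1QB and C1QC. The sixth, HFC replicate 15, had sums of 152, 29312 and 196 CPM, and the part of these cells was not tested.

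IGFBP2, a binding protein of nervous tissue and a carrier of both ligands, changed direction with LFC replicate 5. The gene is ENSSSCG00000035392 on chromosome 15, from 118822009 to 118852036. It had 435 CPM in LFC replicate 5 and 44.3 to 91.5 in the other 7 LFC libraries, around a group median of 79.7. In HFC it ran from 25.9 CPM over 90.5 to 165, with replicates 11, 13, 14 and 16 between 124 and 165 and the other 4 at 57.4 or less. Fitted log2 fold changes were -0.29 ± 0.50 (SE, adjusted p-value 1) with all libraries and 0.44 ± 0.36 (SE, adjusted p-value 0.579) without LFC replicate 5.

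IGFBP7, a matrix protein of blood vessels that binds IGFs weakly, and IGFBP4, which keeps the ligands from the receptor until it is cleaved, were also highest in LFC replicate 5. IGFBP7 (ENSSSCG00000008913; chromosome 8, 56279895 to 56357881) ran from 104 CPM over a median of 161 to 489 in LFC and from 104 over 159 to 234 in HFC. The fitted log2 change was -0.38 ± 0.29 (SE, adjusted p-value 1), and -0.07 without LFC replicate 5. Its span overlaps POLR2B by 5117 bases, and the libraries keep no strand, so reads there may belong to either gene.

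IGFBP4 (ENSSSCG00000017472; chromosome 12, 21962639 to 21980945) ran from 13.1 CPM over 20.1 to 52.9 in LFC and from 15.3 over 23.6 to 39.0 in HFC. HFC differed from LFC by 0.04 ± 0.28 on the log2 scale (SE, adjusted p-value 1), with 0.28 when LFC replicate 5 was left out. In LFC replicate 5 the sum of 6 pericyte and smooth muscle genes was 278 CPM and that of 8 microglia and macrophage genes 684 CPM, both the highest of the 16 libraries. TAGLN, ACTA2, C1QA, C1QB and C1QC were highest there too, but some other genes of these lists were not. RGS5 was at 27.4 CPM there against 68.9 in HFC replicate 11. PDGFRB was at 64.1 CPM against 91.8 in LFC replicate 7. CSF1R was at 66.6 CPM against 94.4 in HFC replicate 16. The part of these cells in the values of the binding proteins was not tested.

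IGFBP3, the main carrier of IGFs in blood, was lowest in LFC replicate 5 and highest in HFC replicate 16. The gene (ENSSSCG00000038783; chromosome 18, 50000101 to 50035762) ran from 2.38 CPM over a median of 7.83 to 15.5 in LFC and from 4.40 over 7.19 to 31.9 in HFC. Apart from that highest library, the other 7 HFC libraries lay within the LFC range. Its fitted log2 change was 0.27 ± 0.43 (SE, adjusted p-value 1) and turned to -0.21 without HFC replicate 16. Its annotated span covers the RefSeq position of IGFBP1, so its counts are uncertain. IGFBP1 had a row of its own with 203 reads over all libraries, too few to be tested.

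**Figure D5:**
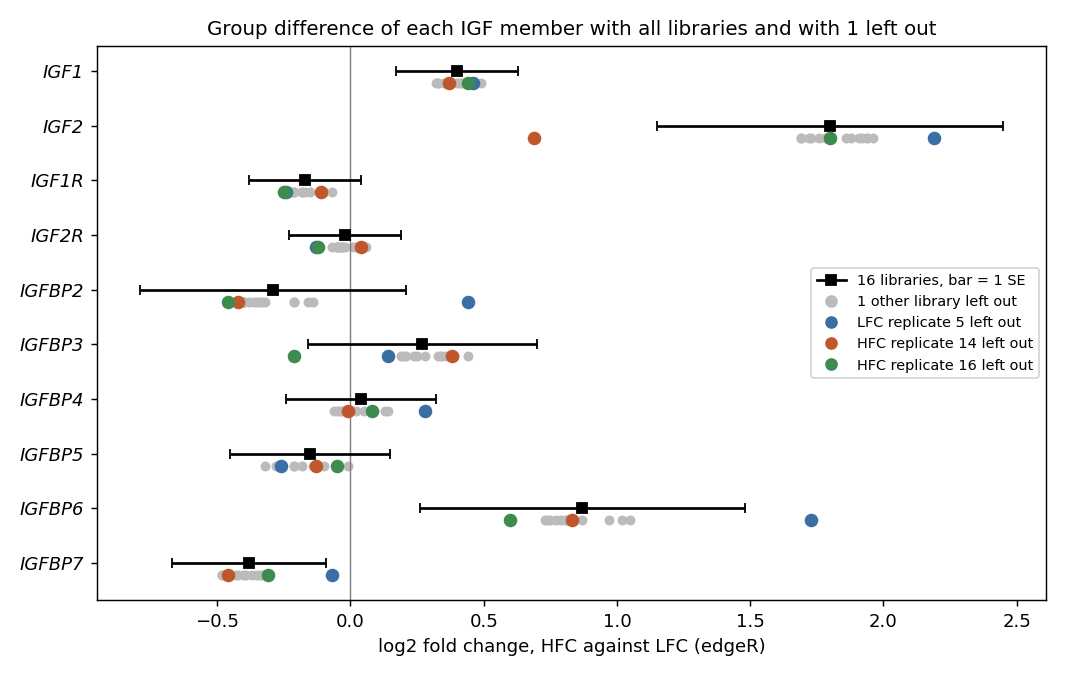
Log2 fold change of HFC against LFC for each gene from edgeR (horizontal axis), with black squares and bars for the 16 libraries and 1 SE, and points for the fits with 1 library left out. IGF2 moves from 1.80 to 0.69 without HFC replicate 14, IGFBP6 from 0.87 to 1.73 without LFC replicate 5, and IGFBP2 and IGFBP3 cross 0.

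Some members varied together from library to library, and others in opposite directions. The values are a description over 16 libraries that differed in depth and tissue makeup. IGFBP2 and IGFBP6 had a Pearson r of 0.82 and a Spearman rho of 0.84 on log2 CPM. Without the 2 libraries farthest from the IGFBP2 median, r was 0.75. IGFBP4 and IGFBP7 had an r of 0.80 and a rho of 0.78, and 0.74 without 2 libraries. For IGF2 and IGFBP6 the values were 0.74 and 0.85, with an r of 0.89 without HFC replicate 14. IGF1R and IGF2R had an r of 0.66 but a rho of 0.42. These relations held within groups too: after the group means were removed, r was 0.91, 0.86, 0.69 and 0.67 for the 4 pairs. Pairs not among these 4 could be as strong. IGFBP2 and IGFBP4 had an r of 0.77, IGF2R and IGFBP7 of -0.77, and IGFBP3 and IGFBP7 of -0.72. Without the 2 libraries farthest from the median of the first gene, r was 0.62, -0.51 and -0.49.

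The genes most like a member, by Pearson r on log2 CPM over all tested genes with a symbol, changed with HFC replicate 14 for IGF2. Over 16 libraries the 6 leading genes were PACSIN3, CCDC43, SYNGR2, RNF14, CDK5RAP1 and FGFR4, with r from 0.90 to 0.95. PACSIN3, an endocytosis adaptor (r = 0.95, rho = 0.80), stood at 229 CPM in HFC replicate 14 and at 48.8 or less elsewhere. Without that library the leading 6 were NKX6-2, SDSL, RAB3IL1, DAZAP2, GGT5 and TPD52L1, and 0 of 6 were shared with the first set. NKX6-2, a homeobox transcription factor of the nervous system (r = 0.96, rho = 0.93), reached 61.9 CPM in 1 library with a median of 0.558 over all.

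For IGFBP6, 5 of the 6 leading genes were shared with and without HFC replicate 14. GGT5, a gamma-glutamyltransferase (r = 0.96, rho = 0.97), ANGPTL7, a secreted angiopoietin-like protein (0.96 and 0.97), and C4A, a complement protein with a near-identical copy (0.95 and 0.96), led the list, with RILPL2, FEZ1 and AGT, the precursor of angiotensin, behind them. For IGF1R, 4 of 6 were shared, and EXTL3, an enzyme of heparan sulphate synthesis, led with r = 0.88 and rho = 0.73. For IGFBP5, 4 of 6 were shared, led by SCNN1G, a subunit of the epithelial sodium channel (r = 0.85, rho = 0.75). IGF1 also shared 4 of 6, led by SNAPC3, a factor of small nuclear RNA transcription (r = 0.85, rho = 0.84), although IGF1 rests on 8 to 26 reads. These coefficients were picked as the highest of many and carry no test. Without the 2 libraries farthest from the member's median, r of the genes listed was 0.69 to 0.95 for IGF2, 0.89 to 0.95 for IGFBP6, 0.69 to 0.83 for IGF1R, 0.60 to 0.88 for IGFBP5 and 0.59 to 0.84 for IGF1.

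Around the members, the intracellular arm of the pathway held 2 genes with an unadjusted p-value under 0.05 among 18 tested of 20 adaptors and kinases, 1 in each direction, beside 4.29% of all genes higher and 1.53% lower. PIK3R1, the regulatory subunit of the lipid kinase that receptors activate, ran from 24.9 CPM over 29.0 to 42.3 in LFC and from 30.4 over 36.2 to 87.8 in HFC. Each of the 8 HFC libraries exceeded the LFC mean on the log2 CPM scale. Its fitted log2 change was 0.62 ± 0.21 (SE, adjusted p-value 0.647). FOXO1, the transcription factor that AKT keeps out of the nucleus, ran from 17.5 over 21.6 to 33.5 in LFC and from 9.73 over 15.7 to 26.5 in HFC, and 1 of 8 HFC libraries exceeded the LFC mean on that scale. For FOXO1 the fitted log2 change was -0.51 ± 0.21 (SE, adjusted p-value 0.788). The median of the 18 was 0.04, TSC2, which restrains mTOR, had a median of 184 CPM, and neither named gene changed direction when 1 library was left out (0.43 to 0.70 for PIK3R1, -0.66 to -0.42 for FOXO1).

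Proteases, inhibitors and other factors that act on binding proteins held no called gene, beside 0% of all genes, and had a median log2 fold change of -0.05. Of these, 0 of 11 were under 0.05 unadjusted, beside 4.29% of all genes higher and 1.53% lower. STC1, a secreted glycoprotein that inhibits the protease PAPPA, had the largest value, 1.18 ± 0.59 (SE, adjusted p-value 0.891), which was 0.25 without HFC replicate 16. CTSD, a lysosomal protease, had a median of 417 CPM. Of the other family members, 3 of 6 could be tested, and 0 were under 0.05 unadjusted, beside the same shares of all genes. The insulin receptor INSR was at 17.3 ± 3.21 CPM in LFC and 18.2 ± 10.7 in HFC (SD, n = 8 each). INS, the neighbour of IGF2, had 2 reads over all libraries.

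Genes that bind the IGF2 messenger or lie in its imprinted region could be tested in 4 of 9 cases, and 4 others had too few reads. Of the 4 tested, 0 were under 0.05 unadjusted, beside 4.29% of all genes higher and 1.53% lower. KCNQ1, a potassium channel, had a median of 7.89 CPM, and IGF2BP2, which binds the IGF2 messenger, had 6.89 ± 1.22 CPM in LFC and 7.01 ± 1.84 in HFC (SD, n = 8 each). Imprinted growth genes elsewhere in the genome were fitted lower in HFC in 7 of 9 tested, beside 51.6% of all genes, with a median of -0.30. Calls were made for 0 of 9, beside 0% of all genes. At an unadjusted p-value under 0.05, 1 of 9 was lower, beside 1.53% of all genes. This was PEG10, a gene derived from a retroelement, which ran from 956 CPM over 1322 to 3334 in LFC and from 305 over 1054 to 1420 in HFC. It did not pass, with a fitted log2 change of -0.68 ± 0.31 (SE, adjusted p-value 0.839; -0.78 to -0.43 with 1 library left out), and 0 of 8 HFC libraries exceeded the LFC mean on the log2 CPM scale. NNAT, a small membrane protein of endocrine and neural cells, had a median of 12019 CPM and a log2 fold change of -0.39 ± 0.22 (SE, adjusted p-value 0.93).

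In the growth hormone axis, 7 of 9 tested genes were fitted lower in HFC, beside 51.6% of all genes, and the median log2 fold change was -0.21. An unadjusted p-value under 0.05 was found for 0 of 9, beside 4.29% of all genes higher and 1.53% lower. GH1 averaged 55376 ± 35853 CPM in LFC and 50256 ± 40367 in HFC (SD, n = 8 each), and the growth hormone receptor GHR 18.4 ± 7.15 and 14.1 ± 6.97 (SD, n = 8 each). The list that the study named for IGF transport, CHRDL1, SPP1, C4A, LTBP1, APOE, IGFBP6 and IGF2, had a median of 0.64, beside -0.01 over all genes tested. Of its genes, 6 of 7 were fitted higher in HFC, while 51.6% of all genes were fitted lower. Under 0.05 unadjusted, 1 of 7 was higher, namely IGF2, beside 4.29% of all genes. That list was chosen on these samples and is not independent evidence of its direction. APOE, a lipid carrier, had a median of 415 CPM, with a log2 fold change of 0.64 ± 0.53 (SE, adjusted p-value 1).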

How the data were processed

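RNA-seq counts of 16 pituitary libraries, 8 LFC and 8 HFC, were analysed. Groups and replicate numbers were taken from the sample titles. The authors deposited raw counts per Ensembl gene and library, as whole numbers without normalisation. Per the study's methods the reads came from a poly(A) kit without strand, single reads in technical repeats, cleaned with FastQC and Flexbar and aligned to Sscrofa11.1 with RSEM and STAR at default parameters, and Bowtie 2 is also named. Whether the deposited whole numbers are rounded RSEM estimates is not given in the sources used here. The submitters' processing notes name FastQC, STAR, RSEM, DESeq2 and Sscrofa11.1. A second deposited table holds gene coordinates and symbols, which were used, and the authors' comparison (group means, fold ratio, its log2 value, p-value and adjusted p-value), which was not. All count columns belonged to labelled samples.

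Symbols came from that table (10091 genes), a table of identifiers (5454) and, for 310 genes including IGF2, an overlap of at least 50% of the longer span with a single RefSeq gene. Of genes that were looked for, H19, KL, AKT1, TSC1, MEG3, GHSR, SOCS2, S100B, SOX2, LHB and MYLPF are not analysed here. Transcript lengths and sequences were not used here, so CPM is not corrected for length and is compared between libraries, not between genes.

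HFC was tested against LFC in edgeR 4.0.16 under R 4.3.3 (glmQLFit and glmQLFTest, TMM scaling, filterByExpr, which removed 11561 genes, no covariate). Values given as CPM use TMM library sizes without a prior count, and log2 CPM uses a prior count of 2. Exact permutation tests over 8 of 16 libraries (scipy 1.17.1) were two-sided. P-values measure the spread between single pigs. Alternatives were DESeq2 1.42.0, limma-voom (limma 3.58.1) with and without library weights, other scalings and filters, a robust fit, no fold minimum, a prior count of 0.5, and libraries left out. Wilson intervals cover counting error only. Totals were 10.973 to 23.060 M counts per library, on average 18.42 M in LFC and 15.17 M in HFC. No library was a duplicate, since chi-square over its degrees of freedom was at least 27.1 in the 56 pairs within groups. The scripts were tested on simulated data.

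The members, gene lists and tests were chosen with earlier results of these data known. Named genes are the 10 members, list genes with an unadjusted p-value under 0.05 (at most 6 per list), the gene with the largest median CPM, not corrected for length, of each list, and up to 6 genes most like 5 members. INSR, IGF2BP2, STC1, INS, GHR, IGFBP1 and single marker genes were added after their values were seen, INSR also having the largest median CPM of its list.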

Additional observations from a re-analysis of the deposited data

Results flagged for a closer look

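The 10 genes were checked for libraries far from the rest of their group, in 20 checks of log2 CPM over 8 libraries each, where chance alone gives about 1 in 20. In 3 of them a library was found, and it was LFC replicate 5 each time. IGF2R had a log2 CPM of 5.13 there and 6.02 to 6.64 in the other 7 LFC libraries. IGFBP2 had 8.77 against 5.47 to 6.52. IGFBP6 had 6.35 against 2.34 to 4.24. IGF2 in HFC replicate 14 and IGFBP3 in HFC replicate 16, though the highest of their groups, did not pass this check on the log scale.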

How the results depend on the processing

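The call of 0 of 10 members was the same in each of the 30 alternatives, including the 12 libraries chosen after seeing the data. The number of members with an unadjusted p-value under 0.05, 1 with all libraries, was 0 with limma-voom, 2 with limma-voom and library weights, 2 without LFC 5 and HFC 14, 0 without HFC 14 and HFC 16, and 0 to 2 when 1 library was left out. DESeq2 called 20 genes of all tested where the other settings called 0. Of 553 recomputed values for single genes, 515 kept their direction and their side of the threshold, 8 passed the permutation threshold where all libraries had not, and 30 changed sign. With 1 library left out, the log2 fold change ran from -0.13 to 0.06 for IGF2R, -0.46 to 0.44 for IGFBP2, -0.21 to 0.44 for IGFBP3 and -0.06 to 0.28 for IGFBP4. The difference in mean log2 CPM ran from -0.17 to 0.09 for IGF2R, -0.27 to 0.23 for IGFBP2, -0.09 to 0.32 for IGFBP3 and -0.29 to 0.05 for IGFBP5. IGFBP2 was at 0.31 without LFC 5 and HFC 14. IGFBP3 was at -0.16 with library weights, -0.13 without HFC 14 and HFC 16, and -0.24 in the 12 libraries. The cause was not tested. IGF2 stayed positive in each alternative, from 0.39 to 2.19, with adjusted p-values from 0.293 to 1, and IGFBP6 from 0.50 to 1.73, with 0.338 to 1. No paired analysis was possible because the groups share no replicate numbers. Depth limits IGF1, with 8 to 26 reads per library.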
